A study of Mus musculus with 6 samples.

Results

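The simple-epithelial keratins examined here were the 8 genes KRT7 (ENSG00000135480), KRT8 (ENSG00000170421), KRT18 (ENSG00000111057), KRT19 (ENSG00000171345), KRT20 (ENSG00000171431), KRT23 (ENSG00000108244), KRT80 (ENSG00000167767) and KRT81 (ENSG00000205426). They were taken from the 30543 genes of the count table by a fixed list of Ensembl identifiers that pairs each identifier with its keratin. The list uses no measured value, but it was drawn up with earlier results of these data known. KRT7 was the target of the siRNA, and the comparison asked whether its partner keratins moved with it. After the filter on low counts, 6 of the 8 were tested together with all other genes (15736 tested), and KRT20 and KRT81 were not.

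RNA was sequenced from CFPAC-1 cells, an established human line of pancreatic ductal adenocarcinoma (PAAD), transfected with a control siRNA (si-Control, 3 libraries) or with siRNA against KRT7 (si-KRT7, 3 libraries). The siRNA duplex and the time of harvest of these libraries are not given in the sources used here. A figure legend of the study speaks of independent experiments for its plotted means, but the labels do not tie the libraries to separate cultures. The p-values measure the spread between these libraries, which may then be technical in part. The labels name the mouse as organism, whereas all 30543 identifiers are human, and the mouse gene tables used here matched 0 of the 8 keratins. The other keratin, filament and cell type marker genes were therefore not analysed here, no sequences are shown, and levels of different keratins, which would need transcript lengths, are not ranked.

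Keratins are the intermediate filament proteins of epithelial cells. An acidic type I chain pairs with a basic type II chain, and the pairs assemble into filaments that give the cell mechanical strength. KRT8 (type II) and KRT18 (type I) form the basic pair of simple epithelia, and KRT7 (type II) and KRT19 (type I) are added in ducts such as those of the pancreas. KRT20 is a type I keratin of intestinal epithelium and urothelium, KRT23 a further type I keratin, KRT80 a type II keratin of epithelia, and KRT81 a type II keratin of hair.

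Total counts lay between 28208896 and 36315802 per library. The si-KRT7 library of replicate 2 stood apart: over log2 CPM, a library's counts scaled to a common total, of the genes tested, its Pearson correlation with si-KRT7 replicates 1 and 3 was 0.9819 and 0.9825, against 0.992 between replicates 1 and 3 and between 0.991 and 0.992 among the si-Control libraries. With the si-Control libraries its correlation was 0.9857 to 0.986, higher than with the other libraries of its own group. The points of these correlations are genes and not replicates. Fold changes and the main ratios and shares are therefore also given without that library, which leaves 2 si-KRT7 libraries against 3. That library was set aside because of its values. Without it, the spread between libraries of a group in the edgeR fit (common biological coefficient of variation) fell from 0.130 to 0.0485. The intervals and p-values of that fit leave out the spread that this library adds. The labels name no batch.

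KRT7 was the only keratin of the 6 tested that passed the edgeR quasi-likelihood test over all 6 libraries, and it was lower in si-KRT7 cells. An adjusted p under 0.05 was reached by 1 of 6 keratins (KRT7), against 2.07% of all genes tested in either direction and 1.35% in the lower direction. With the added limit of an absolute log2 fold change over 1 the count was again 1 of 6, against 0.292% of all genes. The 5 partner keratins tested had a median log2 fold change of -0.16, beside 0.01 over all genes. Without si-KRT7 replicate 2, 5 of 6 passed the test and all 5 were lower (KRT7, KRT8, KRT18, KRT19 and KRT23), but 42.9% of all genes tested in that fit then passed and 22.0% passed in the lower direction, and the partner median was -0.24.

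KRT7 itself held 1723, 1722 and 1797 CPM (normalised with edgeR's TMM factors) in si-Control replicates 1, 2 and 3, and 212, 319 and 220 CPM in those of si-KRT7. The groups lay far apart, and within si-KRT7 cells replicate 2 retained most, at 18.3% of the si-Control mean against 12.2% and 12.6%. The log2 fold change was -2.80 (95% interval -3.16 to -2.45, adjusted p = 4.36e-04 in edgeR), or 0.143 of the si-Control level. Among the 15736 genes it ranked 3 by the size of its decrease, low-count genes included. Without si-KRT7 replicate 2 it was -3.02 (95% interval -3.09 to -2.95, adjusted p = 1.49e-25 in edgeR). The count behind each si-KRT7 value was between 6786 and 8775 reads, so counting error was a small part of the spread.

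**Figure D1:**
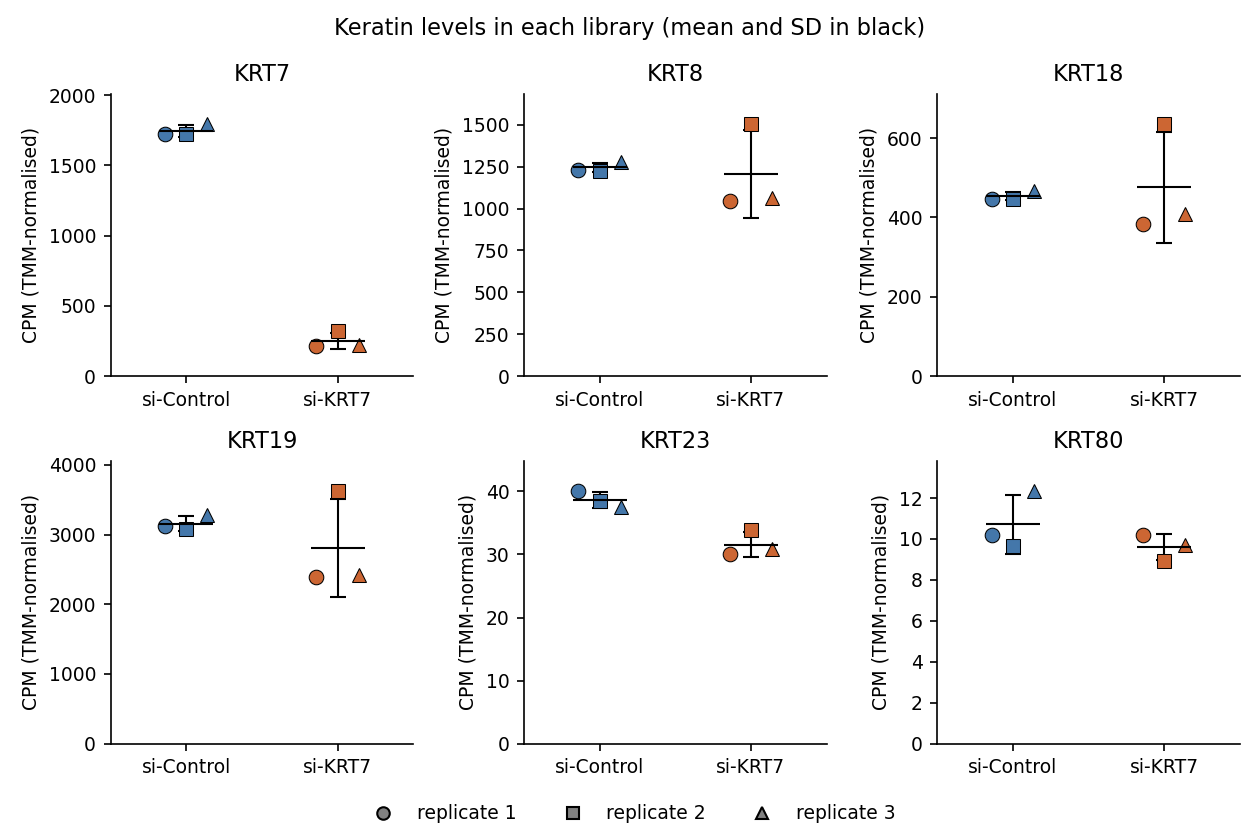
Levels of the 6 tested keratins in each library, in TMM-normalised CPM on linear axes from 0 that differ between panels, with si-Control in blue, si-KRT7 in orange, a symbol for each replicate, and mean and SD (n = 3) in black. KRT7 fell in all 3 si-KRT7 libraries, whereas KRT8, KRT18 and KRT19 lay below the si-Control libraries in si-KRT7 replicates 1 and 3 and above them in replicate 2.

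KRT8, the other type II chain tested with a high read count and the usual partner of KRT18, showed no difference between the groups that exceeded the spread of the si-KRT7 libraries. It held 1231, 1227 and 1279 CPM in the si-Control libraries and 1044, 1506 and 1066 CPM in si-KRT7 replicates 1, 2 and 3. Replicates 1 and 3 lay below every si-Control library and replicate 2 above every one, so the groups overlapped. The log2 fold change was -0.05 (95% interval -0.36 to 0.26, adjusted p = 0.887 in edgeR). Expressed as a fold, the interval ran from 0.781 to 1.20, which leaves out a change of the size seen for KRT7. Without replicate 2, KRT8 fell to 0.845 of its si-Control level (log2 fold change -0.24, 95% interval -0.30 to -0.18, adjusted p = 4.65e-07 in edgeR). Of all genes in that fit, 24.9% had a lower log2 fold change than KRT8.

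KRT18, the type I chain that pairs with KRT8 and can pair with KRT7, behaved in the same way across the libraries. Its levels were 447, 447 and 466 CPM in si-Control cells and 383, 636 and 409 CPM in si-KRT7 replicates 1, 2 and 3. The value of replicate 2, 140% of the si-Control mean, was the furthest from si-Control of any partner keratin in any library. The log2 fold change was 0.07 (95% interval -0.33 to 0.47, adjusted p = 0.870 in edgeR). Its direction rested on that library: without it the log2 fold change was -0.20 (95% interval -0.27 to -0.13, adjusted p = 5.21e-05 in edgeR). A lower log2 fold change than that of KRT18 was then held by 29.3% of all genes.

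KRT19, the ductal type I keratin, held the largest number of reads of the 8, between 74693 and 111290 per library. It stood at 3120, 3075 and 3276 CPM in si-Control cells and at 2387, 3621 and 2424 CPM in si-KRT7 replicates 1, 2 and 3. Again replicates 1 and 3 were low, at 75.6% and 76.8% of the si-Control mean, and replicate 2 was high at 115%. The log2 fold change was -0.17 (95% interval -0.51 to 0.18, adjusted p = 0.601 in edgeR). Without replicate 2 it was -0.40 (95% interval -0.45 to -0.34, adjusted p = 1.09e-10 in edgeR), the largest decrease among the partners in that fit. At that setting 13.2% of all genes had a lower log2 fold change than KRT19.

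KRT23, a type I keratin with fewer reads than KRT18 or KRT19, was the partner with the smallest p over all 6 libraries. It held 40.0, 38.4 and 37.5 CPM in si-Control cells and 30.0, 33.9 and 30.8 CPM in si-KRT7 replicates 1, 2 and 3. All 3 si-KRT7 libraries lay below all 3 si-Control libraries, replicate 2 included. Such separation in CPM held for 24.4% of all genes tested, and for 13.0% with the si-KRT7 libraries lower. The log2 fold change was -0.29 (standard error 0.09, 95% interval -0.49 to -0.09), with an unadjusted p of 0.00998 and an adjusted p of 0.133 in edgeR, which missed the threshold. Without replicate 2, KRT23 fell by 0.35 on the log2 scale (95% interval -0.48 to -0.22, adjusted p = 1.03e-04 in edgeR). At that setting 16.1% of all genes had a lower log2 fold change than KRT23.

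KRT80, a type II keratin of low count here, did not pass the test with or without replicate 2. It held 10.2, 9.64 and 12.3 CPM in si-Control cells and 10.2, 8.91 and 9.71 CPM in si-KRT7 cells, from 245 to 388 reads a library. The groups overlapped, and the spread among the si-Control libraries was the larger. The log2 fold change was -0.16 (95% interval -0.46 to 0.14, adjusted p = 0.564 in edgeR), and -0.11 without replicate 2 (95% interval -0.35 to 0.14, adjusted p = 0.512 in edgeR).

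KRT20 and KRT81 were at or near the limit of detection. KRT20 had 2 reads in si-Control replicate 1 and 0 in each of the other 5 libraries. With 0 of 94641733 reads in si-KRT7 cells, a level of up to 0.0317 CPM remains possible (3 counts over the group), which covers the 0.0194 CPM pooled over si-Control cells. KRT81 had 4, 0 and 2 reads in the si-Control libraries and 6, 6 and 1 in those of si-KRT7. The pooled ratio of si-KRT7 to si-Control was 2.36, with an exact 95% interval of 0.836 to 7.56 that covers counting error only. A difference in either gene was not detectable at this depth. KRT81 is nearly identical in sequence to other hair keratins, and KRT8 and KRT18 have many processed pseudogenes. How the authors' counting treated shared reads is not given in the sources used here, so these values are uncertain to that extent.

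**Figure D2:**
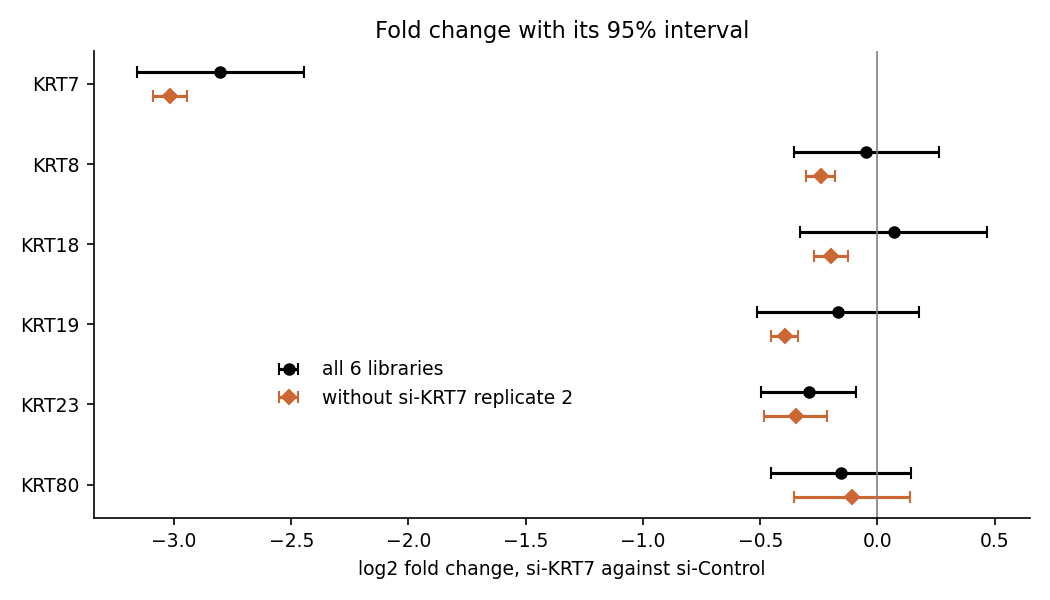
Log2 fold change of si-KRT7 against si-Control cells for the 6 tested keratins, with the 95% interval of edgeR's quasi-likelihood fit, over all 6 libraries (black circles) and without si-KRT7 replicate 2 (orange diamonds). The KRT7 intervals lay between -3.16 and -2.45, and the lowest bound of a partner interval was -0.51.

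The library of replicate 2 was set against all genes to see how far its keratins stood from the rest. Each gene's log2 CPM was taken relative to its si-Control mean, and the rank of the keratin was read among the 15736 genes of the same library. In replicate 2, KRT18 (0.49), KRT8 (0.27) and KRT19 (0.20) lay above 90.4%, 78.3% and 71.6% of all genes. In replicate 1 the same genes, at -0.24, -0.25 and -0.40, lay above 25.2%, 24.2% and 13.4%. In replicate 3, at -0.15, -0.22 and -0.38, they lay above 34.1%, 26.2% and 13.9%. KRT23 was low in all 3 libraries, above 16.1%, 26.3% and 17.5% of genes, and KRT7 lay above at most 0.0890% of genes in each. In no si-KRT7 library did a partner keratin leave the middle 90% of genes, which ran from -0.64 to 0.72 in replicate 2. The spread over the si-KRT7 libraries was a coefficient of variation between 21.6% (KRT8) and 29.2% (KRT18) for KRT7, KRT8, KRT18 and KRT19, against 2.35% to 3.34% for the same 4 genes in si-Control cells. For KRT23 and KRT80 it was 6.39% and 6.67% in si-KRT7 cells, against 3.29% and 13.3% in si-Control cells, so KRT80 spread more in si-Control cells.

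**Figure D3:**
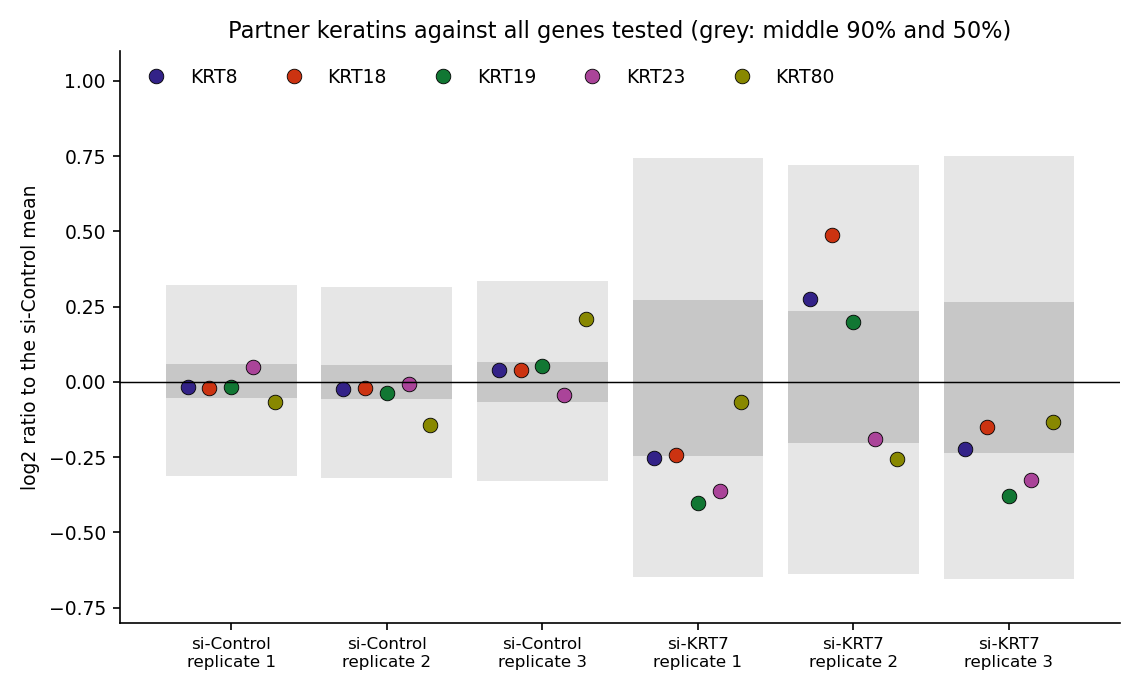
Log2 ratio of the 5 partner keratins to their si-Control mean in each library (points), with the middle 90% (light grey) and middle 50% (dark grey) of all genes tested in that library. KRT8, KRT18 and KRT19 were above 0 in si-KRT7 replicate 2 and below 0 in replicates 1 and 3, whereas KRT23 was below 0 in all 3.

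Ratios of counts between keratins within a library do not depend on how the libraries are scaled. All 15 pairs of the 6 tested keratins were compared, a measure chosen after the levels had been seen. KRT7 per KRT8 read was 1.40, 1.40 and 1.40 in the si-Control libraries and 0.203, 0.212 and 0.207 in si-KRT7 replicates 1, 2 and 3. Replicate 2, which stood apart in the level of both genes, did not stand apart in their ratio. The fold between the groups was 0.148, a log2 difference of -2.76 (two-sided exact permutation p = 0.1, the smallest that 3 libraries against 3 allow, 0.15 after Benjamini-Hochberg adjustment over 15 pairs), and -2.77 without replicate 2. KRT7 per KRT19 read was likewise 0.552, 0.560 and 0.549 in si-Control cells and 0.0890, 0.0881 and 0.0909 in si-KRT7 cells, a log2 difference of -2.63, and of -2.62 without replicate 2. Against the other partners tested, replicate 2 differed more. KRT7 per KRT18 read was 0.555, 0.502 and 0.538 in si-KRT7 replicates 1, 2 and 3, lowest in replicate 2. Per KRT23 read it was 7.07, 9.43 and 7.15, and per KRT80 read 20.9, 35.8 and 22.7, both highest in replicate 2.

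The spread of the ratios to KRT8 was compared with counting error and with other genes. In si-KRT7 cells the log2 ratio of KRT7 to KRT8 had an SD of 0.0296 (n = 3), where counting error alone gives about 0.0180. Among 12461 genes with a mean of at least 50 counts, 1.97% had a smaller SD in their ratio to KRT8 in those libraries, and the median was 0.316. For the ratio of KRT19 to KRT8 the SD was 0.0445 and 4.09% of genes had a smaller value, and for KRT18 to KRT8 it was 0.104 and 14.8%. KRT23 to KRT8 had an SD of 0.207, with 32.7% of genes smaller. KRT80 to KRT8 had 0.390, with 61.4% smaller, above the median of all genes. In si-Control cells the SD was 0.00201 for KRT18 to KRT8 and 0.00291 for KRT7 to KRT8, below the counting error of 0.0136 and 0.00918, and the median of all genes was 0.0772. These genes share their libraries and differ in read depth, so the shares are a description.

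Among the partners, the ratios of KRT8 and KRT18 to KRT19 did not overlap between the groups, although the levels of all 3 genes did. KRT8 per KRT19 read was 0.395, 0.399 and 0.391 in si-Control cells and 0.437, 0.416 and 0.440 in si-KRT7 replicates 1, 2 and 3, and was higher in all 3 si-KRT7 libraries. KRT18 per KRT19 read was 0.143, 0.145 and 0.142 in si-Control cells and 0.160, 0.176 and 0.169 in si-KRT7 cells, also without overlap. The log2 differences were 0.13 and 0.23 (two-sided exact permutation p = 0.1 for each, adjusted 0.15), and 0.15 and 0.20 without replicate 2. In every si-KRT7 library, KRT19 was thus low relative to both genes of the basic pair. Both ratios share KRT19, and 16.6% of all genes tested did not overlap between the groups in their ratio to it.

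KRT8 per KRT18 read was 2.75, 2.74 and 2.75 in si-Control cells and 2.73, 2.37 and 2.61 in si-KRT7 replicates 1, 2 and 3. All 3 si-KRT7 values were lower, but replicate 1 differed little from si-Control cells. The log2 difference of -0.10 became -0.04 without replicate 2 (two-sided exact permutation p = 0.1 with all 6 libraries, adjusted 0.15). Of the 10 pairs without KRT7, 5 did not overlap between the groups, namely KRT8/KRT18, KRT8/KRT19, KRT18/KRT19, KRT8/KRT23 and KRT18/KRT23. The log2 differences of the pairs with KRT23 were 0.23 and 0.33 and rested largely on replicate 2, since without it they were 0.11 and 0.15. For comparison, the ratio to KRT8, to KRT18 and to KRT19 did not overlap between the groups in 16.9%, 15.7% and 16.6% of all genes tested. These pairs share members and are not independent.

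**Figure D4:**
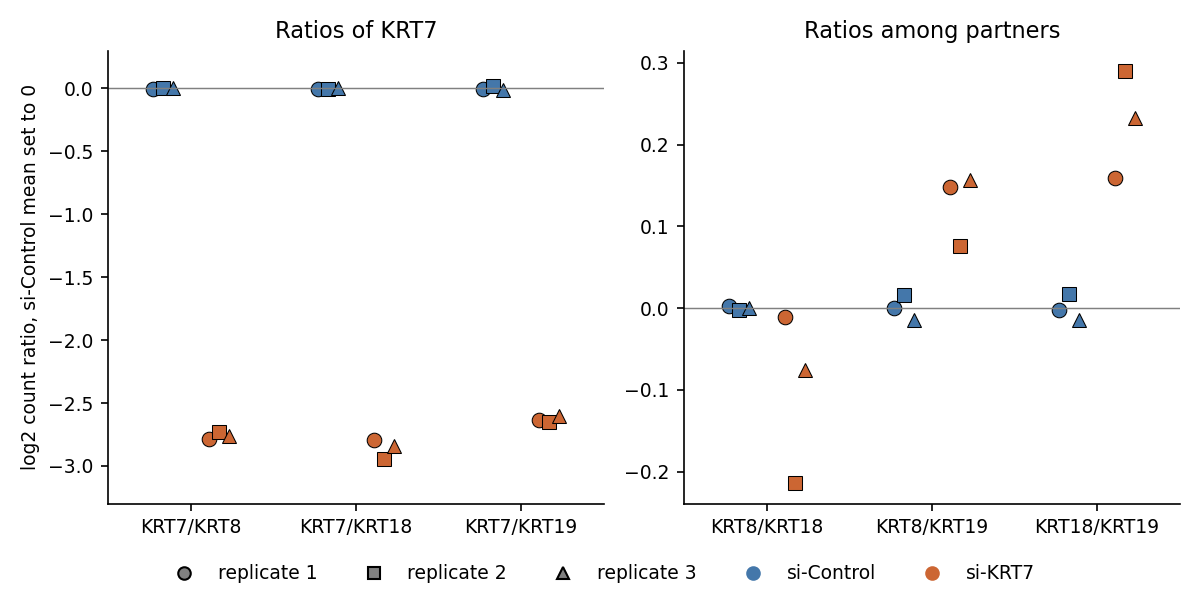
Log2 ratio of counts between pairs of keratins in each library, with the si-Control mean of each pair set to 0, for KRT7 against 3 partners (left) and among these partners (right, on a finer scale). Blue is si-Control, orange is si-KRT7, and symbols mark replicates. The KRT7 ratios lay near -2.76 (KRT8), -2.86 (KRT18) and -2.63 (KRT19) in si-KRT7 cells, and the partner ratios differed by 0.23 or less on average.

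The make-up of the keratin reads separated the groups, with little spread within either. Of all reads on the 8 genes, KRT7 took 26.2%, 26.4% and 26.2% in the si-Control libraries and 5.22%, 5.21% and 5.29% in those of si-KRT7. The difference between the mean shares was -21.0 percentage points (two-sided exact permutation p = 0.1, the smallest possible), and the 3 si-KRT7 libraries differed by less than 0.1 points (SD 0.0453, n = 3). KRT19 took 47.5% ± 0.263 in si-Control and 58.7% ± 0.424 in si-KRT7 cells (SD, n = 3). For KRT8 the shares were 18.7% ± 0.0964 and 25.3% ± 0.615, and for KRT18 they were 6.82% ± 0.0398 and 9.88% ± 0.486 (SD, n = 3), all 3 without overlap. Without replicate 2 the differences were 11.04 (KRT19), 6.92 (KRT8) and 2.81 (KRT18) percentage points, beside 11.25, 6.57 and 3.06 with it. These shares add up to a fixed total, so a lower KRT7 alone gives higher shares of the others, and they depend on transcript length.

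As a share of all reads in a library, the 8 genes took 0.653%, 0.650% and 0.677% in si-Control cells and 0.417%, 0.597% and 0.424% in si-KRT7 cells. Without KRT7, the other 7 took 0.487% ± 0.0115 and 0.454% ± 0.0967 (SD, n = 3), a difference of -0.0321 percentage points that lay within the spread (two-sided exact permutation p = 0.6). Without replicate 2 the difference was -0.0880 percentage points. In replicate 2 the other 7 took 0.566%, above every si-Control library, and in replicates 1 and 3 they took 0.395% and 0.402%, below every one. In such bulk samples, fewer cells of a kind and less RNA per cell cannot be told apart.

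The balance of type II to type I reads was lower in every si-KRT7 library. Type II reads (KRT7, KRT8, KRT80 and KRT81) per type I read (KRT18, KRT19, KRT20 and KRT23) were 0.822, 0.831 and 0.817 in si-Control cells and 0.453, 0.427 and 0.453 in si-KRT7 cells. The log2 difference was -0.89 (two-sided exact permutation p = 0.1), and -0.86 without replicate 2. The type II sum includes the siRNA target KRT7, so its fall lowers this ratio by construction. With KRT7 left out of the sum, the ratio was 0.344, 0.347 and 0.342 against 0.377, 0.353 and 0.376, a log2 difference of 0.10 in the opposite direction (two-sided exact permutation p = 0.1), or 0.13 without replicate 2. The type II reads left were nearly all of KRT8 and most type I reads were of KRT19, so this ratio largely repeats KRT8 per KRT19 read. KRT8 per KRT18 read, also type II to type I, differed the other way (log2 difference -0.10).

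**Figure D5:**
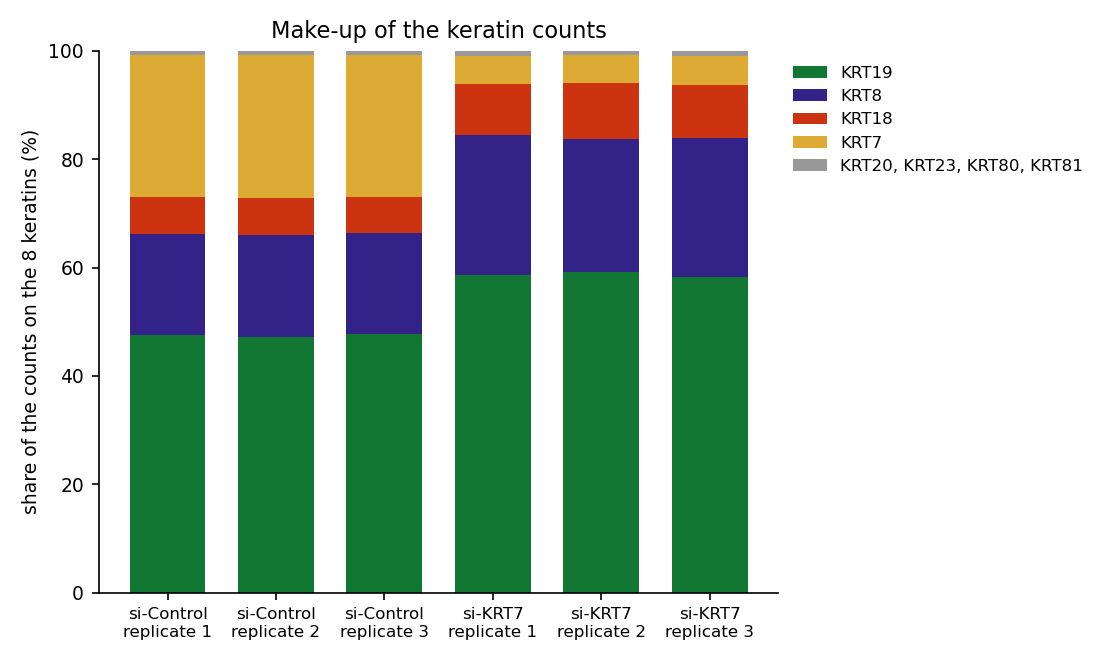
Share of the reads on the 8 keratins taken by KRT19, KRT8, KRT18, KRT7 and the other 4 together, in each library, as stacked bars adding up to 100%. KRT7 took about 26% in each si-Control library and about 5% in each si-KRT7 library, including replicate 2.

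Genes with a pattern like that of KRT7 were sought by the root mean square difference of the log2 ratios to the si-Control mean over the 6 libraries. Among 12462 genes with a mean of at least 50 counts, the nearest were ENSG00000162407 (0.823) and ENSG00000165410 (0.950), which the tables used here pair with no symbol. Both fell less than KRT7, with log2 fold changes of -1.73 and -1.54 (adjusted p = 6.38e-04 and 0.00121 in edgeR). Unlike KRT7, both were lowest in si-KRT7 replicate 2, at -1.93 and -1.76. The genes ranked 3 to 5 were ENSG00000215269, ENSG00000160471 and ENSG00000026025, also without a symbol. Like KRT7, they fell least in si-KRT7 replicate 2, at -0.237, -1.062 and -1.005 in that order. Their adjusted p-values were 0.236, 0.00741 and 0.0263 in edgeR, so the first of them missed the threshold. No partner keratin was among the 5 nearest. The measure includes the size of the fall, so the small changes of the partners alone keep them far from KRT7. It cannot show whether their pattern over replicates was like that of KRT7. For KRT23, the partner with the smallest p, the 5 nearest genes lay at 0.0181 to 0.0299 and none was a keratin of the list.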

How the data were processed

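The table deposited by the authors holds raw counts: reads per gene, 1 column for each library, not scaled or pooled. The submitters' processing notes name STAR 2.7.11b and the mouse build GRCm39, although every identifier is human, and the counting tool and annotation are not given in the sources used here. Genes were fitted with edgeR 4.0.16 (R 4.3.3) by way of filterByExpr, TMM, glmQLFit and glmQLFTest over all genes, with Benjamini-Hochberg adjustment. Standard errors were derived from the F statistic, and 95% intervals from these and the fitted degrees of freedom. Log2 CPM used a prior count of 2. Single values per library were compared by two-sided exact permutation tests. DESeq2 1.42.0 and limma 3.58.1 served as alternatives, and the scripts were tested on simulated data. Intervals on counts cover counting error only. Members, lists and tests were chosen with earlier results of these data known. The named genes were the 8 keratins and those with a pattern most like KRT7 and the partner with the smallest p. Planned lists of other keratins, other intermediate filament proteins, keratin-binding proteins and cell type markers were not analysed here, since their identifiers were not paired with symbols.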

Additional observations from a re-analysis of the deposited data

How the results depend on the processing

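KRT7 passed the test in all 11 alternatives and in all 6 fits that each left out a library, with log2 fold changes between -2.99 and -2.79 and, with a library left out, between -3.02 and -2.70 (adjusted p up to 0.0136 in edgeR). It was the only keratin past both limits in each of them. KRT80 passed in none, with -0.23 to -0.05 where a library was left out.

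The number of keratins with an adjusted p under 0.05 was 1 in 10 of 11 alternatives, in which between 0.483% (replicate block) and 8.29% (DESeq2 Wald test, of genes given an adjusted p) of all genes passed, and 5 with limma-voom and sample quality weights, where KRT8 was at -0.22, KRT18 at -0.16 (reversed), KRT19 at -0.37 and KRT23 at -0.34 (adjusted p = 5.08e-04, 0.0181, 5.89e-06 and 2.84e-04 in limma) and 43.6% of all genes passed. With a library left out it ran from 1 to 5, the 5 coming from the fit without si-KRT7 replicate 2. The fits that gave 1 called few genes of any kind: between 0.0372% and 0.0616% of all genes without a si-Control library, and 0.542% and 0.223% without si-KRT7 replicate 1 and 3. In these fits KRT8 lay between -0.0608 and 0.0437 (above 0 without si-KRT7 replicate 1 or 3) and KRT18 between 0.0573 and 0.20. KRT19 lay between -0.19 and -0.0651, and KRT23 between -0.32 and -0.26. With si-KRT7 replicate 2 left out, these keratins were lower, at -0.24, -0.20, -0.40 and -0.35 in the same order. The weights were estimated from these libraries, and the cause was not tested.

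Type II to type I reads changed by -0.89 on the log2 scale, a sum that includes the siRNA target KRT7, whose fall lowers it by construction. With KRT7 left out of the ratio, which then rests mostly on KRT8 and KRT19, the change was 0.0969. With a library left out the change lay between -0.90 and -0.86, and that of the KRT7 share between -21.1 and -20.9 percentage points.

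With the replicate block KRT7 was at -2.83 (adjusted p = 2.19e-04 in edgeR), and it changed no call among the keratins. Same-numbered libraries had correlations of 0.0520, -0.0798 and -0.0728 in their deviations from the group means. With 3 libraries a group and si-KRT7 replicate 2 standing apart, these values cannot show whether same-numbered libraries belong together. KRT20 and KRT81 were not fitted because of their low counts, and the alternatives for them were not run.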
